A study of Mus musculus with 2 samples.

Results

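The sine oculis homeobox, EYA and DACH families form a network of transcriptional regulators, and the 9 members described here are Six2, Six4, Six5, Eya1, Eya2, Eya3, Eya4, Dach1 and Dach2. They were chosen as the probe sets whose only gene symbol is one of these names, which gave 9 genes with 1 probe set each, of 19938 genes that had a probe set with 1 symbol. The members were chosen by name, but with the log2 difference between the 2 arrays of the series known, so the differences below are a description of the members and not a test of them. Gene expression was measured on 1 Affymetrix MoGene 1.0 ST array per group, in a single line of mouse myoblasts, the proliferating muscle precursors that descend from satellite cells. The MLL1 KO culture carried Rosa-CreER and MLL1 fl/fl and was grown for 7 days with 500 nM 4-OHT, the tamoxifen metabolite that activates CreER, in 0.01% ethanol. The Control culture had the same genotype, was a part of the same line and received the ethanol alone. Both were kept in a growth medium (Ham's F10) that held FBS at 20% and FGF at 5 ng/ml, and both were harvested 3 days after treatment by the sample labels, whereas the methods of the study give a shorter washout. CreER is driven from the Rosa26 locus, which is active in most cell types. The drug, the activated recombinase and the deletion all occurred in the MLL1 KO culture only and cannot be told apart in these data.

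Sine oculis homeobox proteins, encoded by Six2, Six4, Six5 and their paralogs, are homeodomain transcription factors, whereas EYA proteins do not bind DNA themselves and join them as coactivators that also have phosphatase activity. DACH proteins are related to the SKI corepressors and act mostly as repressors in the same complexes. The network was first worked out in the Drosophila eye with the genes sine oculis, eyes absent and dachshund. In muscle, sine oculis homeobox and EYA proteins act upstream of the myogenic regulatory factors, and the homeodomain proteins bind the MEF3 element, which was described in the promoters of myogenin and aldolase A. MLL1, encoded by Kmt2a, is a methyltransferase for lysine 4 of histone H3 and has a CXXC domain that binds DNA rich in unmethylated CpG.

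The 250 bases upstream of the start are shown for Six2 and Dach1, the only members that differed by more than 2-fold between the arrays, and for Eya4, the member with the next largest difference, so that their CpG content can be read from the sequence. They are from RefSeq (GRCm38.p6), run 5′ to 3′ on the strand of the gene, and have each CpG in capitals. The windows are chr17:85688255-85688504 on the minus strand for Six2, chr14:98169766-98170015 on the minus strand for Dach1 and chr10:23349944-23350193 on the minus strand for Eya4.
Six2: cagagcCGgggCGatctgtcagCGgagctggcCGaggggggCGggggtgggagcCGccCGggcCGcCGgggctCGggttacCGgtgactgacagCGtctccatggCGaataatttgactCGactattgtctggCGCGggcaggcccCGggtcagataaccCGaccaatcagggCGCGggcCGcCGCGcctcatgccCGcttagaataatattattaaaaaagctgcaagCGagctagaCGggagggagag
Dach1: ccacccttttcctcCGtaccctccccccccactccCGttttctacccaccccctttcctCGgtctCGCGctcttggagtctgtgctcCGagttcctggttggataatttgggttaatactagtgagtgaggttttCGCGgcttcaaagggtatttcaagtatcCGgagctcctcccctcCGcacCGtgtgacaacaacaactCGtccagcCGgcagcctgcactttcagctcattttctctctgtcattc
Eya4: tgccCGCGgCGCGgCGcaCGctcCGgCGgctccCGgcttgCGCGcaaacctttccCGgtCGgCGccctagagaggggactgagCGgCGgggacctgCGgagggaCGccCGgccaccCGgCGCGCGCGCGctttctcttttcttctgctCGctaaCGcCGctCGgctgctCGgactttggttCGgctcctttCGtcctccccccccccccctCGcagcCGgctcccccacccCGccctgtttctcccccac
The Six2 window held 26 CpGs, more than 90.4% of the 32851 promoters of this length, and the Eya4 window printed here held 35, more than 97.0% of them. Eya4 has a second start in the table, whose window held 25, more than 89.3%. The Dach1 window held 13, more than 68.5%. Of the 9 members, 7 had promoters in the table, with 10 start sites between them, and their windows held between 13 and 35 CpGs, against a median of 6 over the 32851 promoters. Eya1 and Eya2 had no entry. The MEF3 element, written TCAGGTTTC and searched on both strands, was found in 0.387% of the 32851 windows. Among the members it was found in 1 window, upstream of a Six4 start, on the opposite strand. Six4 has a second start in the table, whose window did not hold the element. This site is printed together with that of Myog, the myogenin gene, because Myog is the classical example of a promoter with the element, with the element in capitals.
Myog: agaggggggcTCAGGTTTCtgtggcgttg
Six4: tggcctggggGAAACCTGAtcggccagat
The Myog stretch lies at chr1:134289910-134289938 on the plus strand and the Six4 stretch at chr12:73113326-73113354 on the minus strand, again in GRCm38.p6. A match describes these letters only, and binding of any factor was not analysed here.

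The values are log2 signals after RMA normalization, in which a step of 1 is a 2-fold change. Their median over the 21789 probe sets with 1 symbol was 6.28 in the MLL1 KO array and 6.21 in the Control array, and the median log2 difference, MLL1 KO minus Control, was -0.05. The central 95% of the differences ran from -0.56 to 0.77. With 1 array per group there was no spread between cultures, no standard error and no p-value, and precision is limited by having 2 arrays. Because each probe set has its own probes, the signals of different probe sets do not order the levels of their genes, and places on the scale of an array are given only to show how bright a probe set was. Kmt2a itself had a log2 signal of 9.66 in the MLL1 KO array and 9.44 in the Control array. Its 1 probe set summarises probes along the transcript, so this value does not check the deletion of single exons. Of the myoblast markers, Myod1 and Pax7 were bright in both arrays, with Myod1 at 12.27 in MLL1 KO and 12.15 in Control, and Pax7 at 10.02 in MLL1 KO and 10.29 in Control. Myf5, also a myoblast marker, had 9.51 in Control but 6.14 in MLL1 KO, below the median of that array. Among markers of other cell types, the highest signal of 5 endothelial markers was 5.25 in MLL1 KO and 5.65 in Control, and the highest of 5 immune markers was 5.21 in MLL1 KO and 5.46 in Control. Some markers of connective tissue lists were brighter, namely Tcf7l2 of the fibroblast list at 9.95 in MLL1 KO and 9.82 in Control, Col3a1 of the same list at 7.67 in MLL1 KO and 8.12 in Control, and Scx of the tendon list at 8.91 in MLL1 KO and 8.24 in Control.

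The network did not differ in one direction as a whole, because Six2 was lower and Dach1 was higher by more than 2-fold in the MLL1 KO array and the other 7 members differed by less. Of the 9 members, 1 was over 2-fold lower, beside 0.101% of the 21789 probe sets with 1 symbol, and 1 was over 2-fold higher, beside 1.18%. Without regard to size, 6 members were lower, beside 56% of the probe sets, and 3 were higher, beside 41.2%. One of the 6, Eya2, turned sign under some scalings, as given with its values. The median log2 difference of the members was -0.13, against -0.05 over all genes. The members were chosen with these differences known, so nothing is read from the shares.

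**Figure D1:**
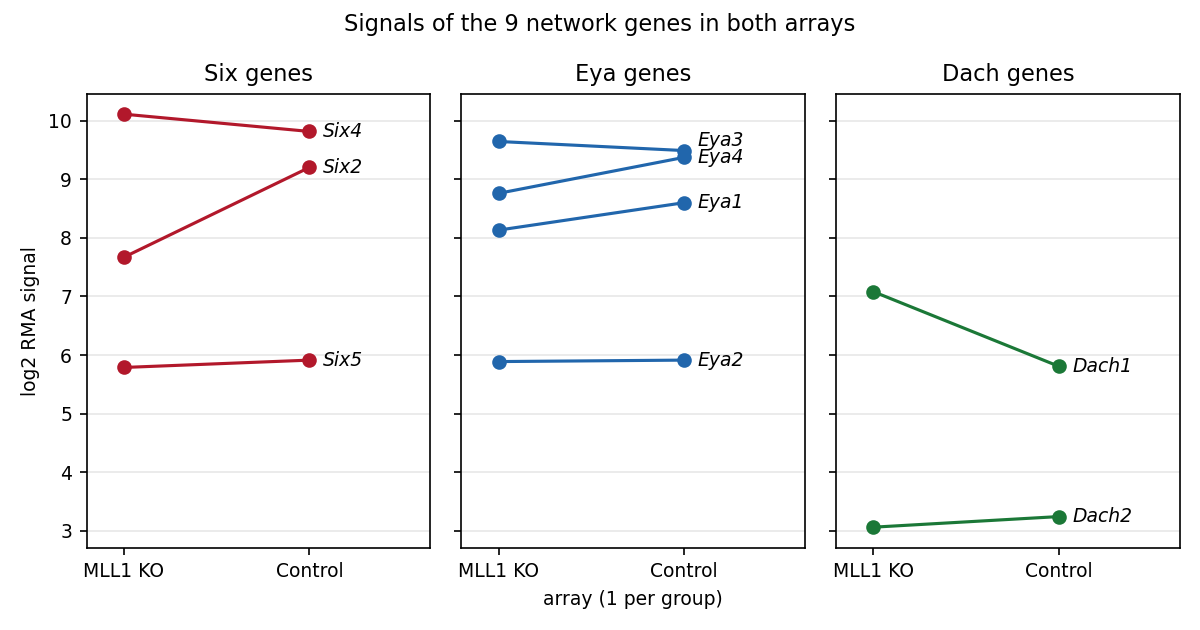
The log2 RMA signal (vertical axis) of each of the 9 network genes in the MLL1 KO array and the Control array (horizontal axis), with 1 line per gene and 1 array per group. The line of Six2 has its lower end in MLL1 KO (7.67 against 9.20 in Control) and that of Dach1 its higher end (7.08 against 5.81 in Control), while the other lines are flatter.

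Six2 showed the largest difference of the network. SIX2 keeps the nephron progenitors of the developing kidney undifferentiated and is also expressed in mesenchyme of the head and limb. Its log2 signal was 7.67 in the MLL1 KO array and 9.20 in the Control array, a log2 difference of -1.53, or 2.89-fold lower. This was the 6th lowest difference among the 21789 probe sets. In terms of brightness, 64.4% of the probe sets were dimmer than Six2 in the MLL1 KO array, against 84.7% in the Control array. Of the 2179 probe sets in the same decile of mean signal, 0.138% had a difference as low or lower.

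Six4 and Six5, the paralogs of Six2 among the members, stayed within 1.5-fold. SIX4 acts with its paralogs in muscle and was first found as a factor binding a regulatory element of a sodium pump gene. Its log2 signal was 10.11 in the MLL1 KO array and 9.81 in the Control array, a difference of 0.29, or 1.23-fold higher. It was bright in both arrays, where 92.6% of the probe sets were dimmer in MLL1 KO and 90.5% in Control. Six5, which lies beside the myotonic dystrophy kinase gene Dmpk, had a log2 signal of 5.79 in the MLL1 KO array and 5.91 in the Control array, a difference of -0.13, or 1.09-fold lower. Among the probe sets of similar mean signal, 12.3% were as high or higher in their difference than Six4, and 48.2% were as low or lower than Six5. The 2 other paralogs with a named probe set, which are not members, had weak signals that were lower in MLL1 KO. Six3, a gene of the forebrain and eye, had 5.27 in MLL1 KO and 5.70 in Control. Six6, a gene of the eye and pituitary, had 4.25 in MLL1 KO and 4.89 in Control.

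Among the EYA genes, Eya4 and Eya1 were lower in the MLL1 KO array by less than 2-fold, whereas Eya3 and Eya2 were closer to 0. Eya4, whose human counterpart is mutated in a form of deafness and of dilated cardiomyopathy, had a log2 signal of 8.76 in the MLL1 KO array and 9.37 in the Control array. Its difference of -0.61 made it 1.53-fold lower, and 1.51% of the 2179 probe sets of similar mean signal were as low or lower. Over all probe sets with 1 symbol, 2.03% were more than 1.5-fold lower. Eya1, whose human counterpart is mutated in branchio-oto-renal syndrome, had 8.13 in the MLL1 KO array and 8.60 in the Control array. Its difference was -0.47, or 1.38-fold lower, with 4.50% of the probe sets of similar signal as low or lower.

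The remaining EYA genes differed little. Eya3, which is expressed in many tissues, had a log2 signal of 9.64 in the MLL1 KO array and 9.49 in the Control array, a difference of 0.16, or 1.11-fold higher. Eya2, known from the precursors of limb muscle, had 5.89 in the MLL1 KO array and 5.91 in the Control array, a difference of -0.02. Its sign was not settled, because the difference was 0.03 with all differences centred on their median and 0.06 with the trend of the difference on signal removed. Of the 4 EYA genes, 3 were therefore lower and 1 was higher as deposited, and 2 were lower and 2 were higher under those scalings. The EYA genes with the brighter signals thus went both ways, with Eya4 and Eya1 lower and Eya3 higher under every scaling run.

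Dach1 and Dach2 differed in opposite directions. Dach1, a corepressor that restrains proliferation in several cell types, had a log2 signal of 7.08 in the MLL1 KO array and 5.81 in the Control array, a difference of 1.27, or 2.42-fold higher. Of all probe sets with 1 symbol, 45.6% were dimmer than Dach1 in the Control array, and 57.6% were dimmer in the MLL1 KO array. It ranked 107th from the highest difference among the 21789 probe sets. Of the 2178 probe sets in its decile of mean signal, 1.19% had a difference as high or higher. Dach2, which in mouse muscle takes part in the repression of myogenin by nerve activity, had 3.06 in the MLL1 KO array and 3.25 in the Control array. Its difference of -0.18, or 1.13-fold lower, was within the dimmest decile of the probe sets, where 21.3% were as low or lower.

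**Figure D2:**
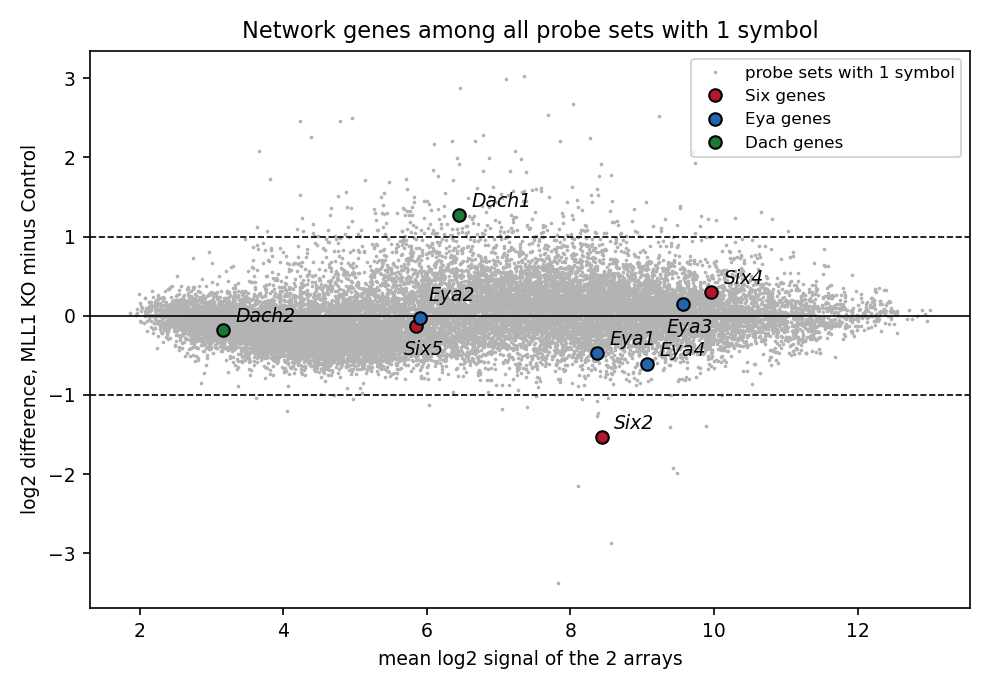
The log2 difference, MLL1 KO minus Control (vertical axis), against the mean log2 signal of both arrays (horizontal axis) for the 21789 probe sets with 1 symbol in grey and the network genes in colour, with dashed lines at a 2-fold difference. Six2 at -1.53 and Dach1 at 1.27 lie outside the dashed lines, and the other 7 lie inside them.

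The scaling of the arrays changed no call at 2-fold among the members. Six2 stayed between -1.61 and -1.48 and Dach1 between 1.22 and 1.33 on the log2 scale over the deposited values and the 3 other scalings, so that both passed 2-fold under each. Eya4 stayed between -0.67 and -0.56, Eya1 between -0.54 and -0.42, and Six4 between 0.27 and 0.35. Small differences moved more in proportion, with Six5 between -0.13 and -0.03, Dach2 between -0.18 and -0.09, and Eya3 between 0.11 and 0.21.

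**Figure D3:**
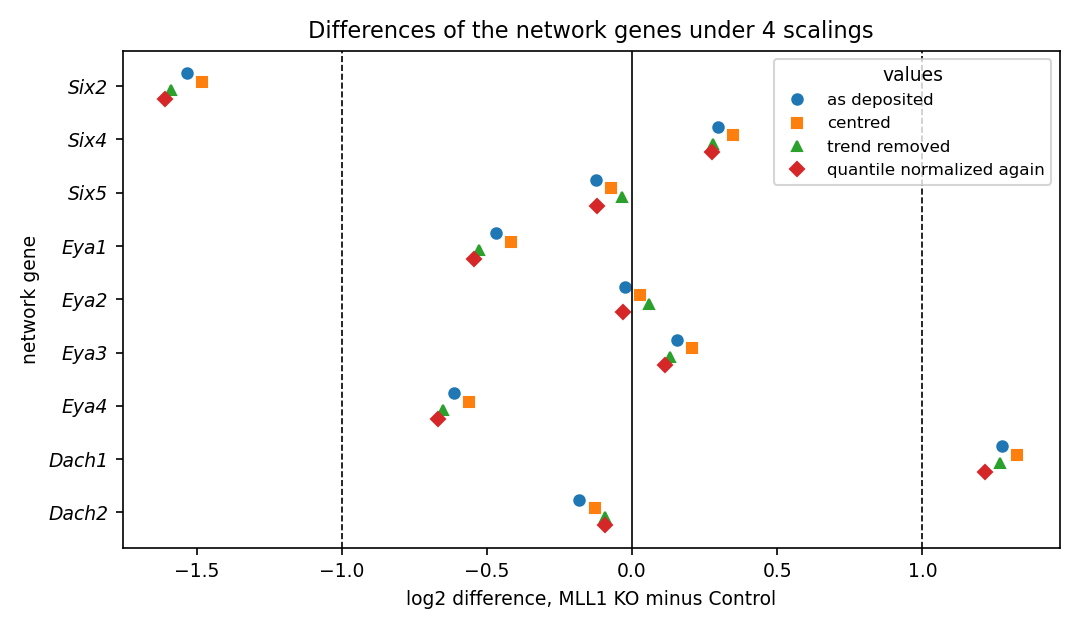
The log2 difference, MLL1 KO minus Control (horizontal axis), of each network gene (vertical axis) as deposited, centred on the median of all probe sets with 1 symbol, with the trend on mean signal removed and after a further quantile normalization. Six2 and Dach1 lie outside the dashed 2-fold lines under all 4, and the symbols of Eya2 fall on both sides of 0.

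The genes next to the members in the genome were looked up as a description. For each member the nearest gene on either side with a probe set of 1 symbol was taken from the RefSeq annotation, which gave 18 neighbours. None of them differed by more than 2-fold, beside 1.27% of all genes. So few genes would seldom hold one at that share, and nothing about the loci is read from this count. Of these neighbours 12 were lower, beside 55.6% of all genes, and 6 were higher, beside 41.6%. Their median log2 difference was -0.13. The neighbours of Six2 were Six3, at -0.43, and Srbd1, an RNA-binding domain gene with 7.83 in the MLL1 KO array and 7.86 in the Control array. The neighbours of Dach1 were Klhl1, with 5.45 in MLL1 KO and 5.18 in Control, and Mzt1, a gene of the microtubule-nucleating complex, with 9.54 in MLL1 KO and 9.64 in Control. Whether the Six2 and Dach1 differences extend to their regions was not tested. Eya4 lies between Tcf21, at -0.23, and the ribosomal protein gene Rps12, at -0.29. Eya1 lies between Xkr9, at -0.20, and Msc, at -0.53, a repressor of myogenic factors that was dim, with 4.33 in MLL1 KO and 4.87 in Control. The largest difference among the neighbours was that of Six6, beside Six4, at -0.64, and Dmpk, beside Six5, had 10.88 in MLL1 KO and 11.36 in Control. The other neighbours of Six4, Six5 and Eya3 were Mnat1 at 0.17, Fbxo46 at -0.08, Ptafr at -0.23 and Xkr8 at 0.36. Eya2 lies between Slc2a10 at 0.19 and Zmynd8 at 0.21, and Dach2 between Mir361 at 0.18 and Klhl4 at -0.15.

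**Figure D4:**
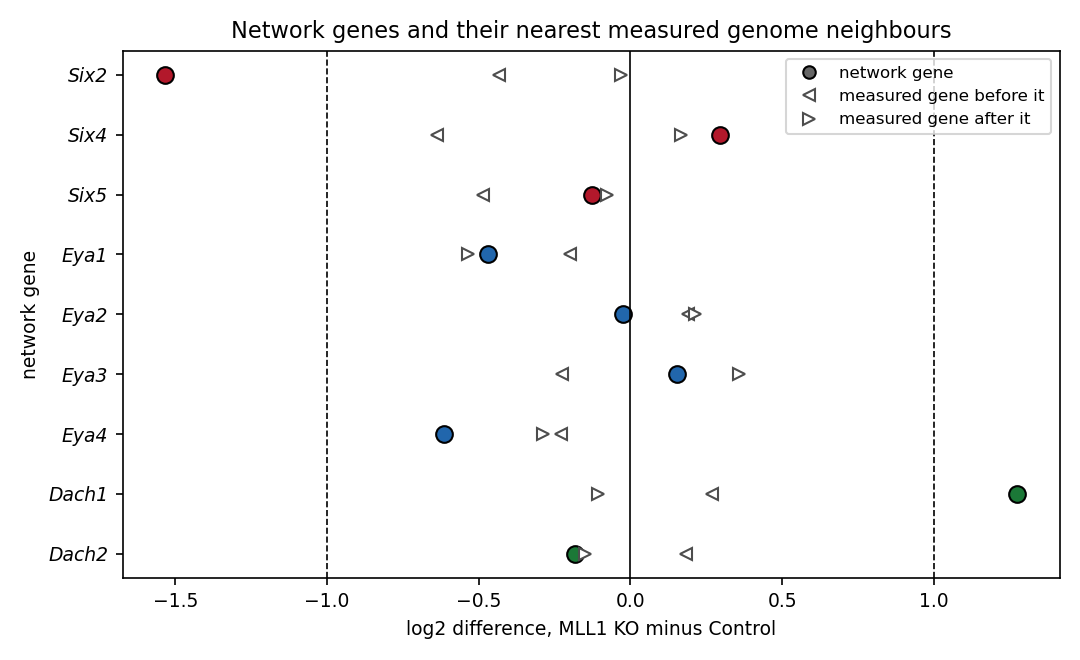
The log2 difference, MLL1 KO minus Control (horizontal axis), of each network gene (filled circle, vertical axis) and of the nearest measured genes before and after it in the genome (open triangles), with dashed lines at a 2-fold difference. The triangles lie between -0.64 and 0.36, inside the dashed lines on every row, including those of Six2 and Dach1.

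The genes closest to Six2 and Dach1 in both signals were looked up, as the distance between the pairs of log2 signals over the 2 arrays. The 3 nearest to Six2 were Dlx1, a homeobox gene of the forebrain and limb, then Fgfr4, a receptor for fibroblast growth factors, and Lmnb1, which encodes lamin B1. They were 2.40-fold, 2.34-fold and 2.11-fold lower in MLL1 KO, with signals of 7.74, 7.77 and 7.84 there. Their distances from Six2 were 0.21, 0.23 and 0.33. The 3 nearest to Dach1 were the tubulin gene Tubb3, the growth factor gene Btc, which encodes betacellulin, and Mras, a small GTPase of the RAS family. They were 2.29-fold, 2.14-fold and 2.17-fold higher in MLL1 KO, at distances of 0.06, 0.13 and 0.13. With 2 arrays such a likeness rests on 2 values per gene, and it includes the brightness of each probe set, which depends on its probes.

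Cofactors of the network and genes listed as upstream of it, among them PAX genes, Meox1, Meox2 and Tbx1, were also looked up. Of 23 such genes 21 were measured. Of these, 9 were higher, beside 41.6% of all 19938 genes, 10 were lower, beside 55.6%, and 2 were equal in both arrays. None was over 2-fold in either direction, beside 0.11% of all genes over 2-fold lower and 1.16% over 2-fold higher. A list this short would seldom hold such a gene at those shares, and nothing about these genes is read from this count. Their median log2 difference was 0, against -0.05 over all genes. The largest difference was that of Tle1, a corepressor of the Groucho family that can bind sine oculis homeobox proteins, with 8.05 in MLL1 KO and 7.37 in Control, or 1.60-fold higher. Another Groucho gene, Tle3, was bright and differed less, with 9.88 in MLL1 KO and 9.81 in Control. The corepressor genes Ski and Skil, relatives of the DACH genes, had log2 differences of 0.13 and -0.06. Of the PAX genes, Pax3 had 6.99 in MLL1 KO and 6.44 in Control, and Pax7 was 1.21-fold lower.

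Genes that are described as regulated by sine oculis homeobox proteins, directly or not, included members over 2-fold in both directions. All 23 in the list were measured, and 3 were over 2-fold higher, beside 1.16% of all genes, and 2 over 2-fold lower, beside 0.11%. In all 12 were higher, beside 41.6% of all genes, and 11 lower, beside 55.6%, with a median log2 difference of 0.01 against -0.05 over all genes. The lower ones were Myf5, the myogenic regulatory factor, with 6.14 in MLL1 KO and 9.51 in Control, and Lbx1, a homeobox gene of migrating limb muscle precursors, with 6.82 in MLL1 KO and 7.97 in Control. The higher ones were Mef2c, a transcription factor of differentiating muscle, with 7.69 in MLL1 KO and 6.25 in Control, the fast myosin gene Myh1, with 7.86 in MLL1 KO and 6.62 in Control, and Igfbp5, which binds insulin-like growth factors, with 10.64 in MLL1 KO and 9.43 in Control. Myog, which carries a MEF3 element, had 7.94 in MLL1 KO and 7.30 in Control, or 1.56-fold higher. The glycolytic genes Aldoa and Eno3, both bright, differed by -0.06 and -0.04. Both the list of targets and that of cofactors and upstream genes thus held higher and lower genes.

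**Figure D5:**
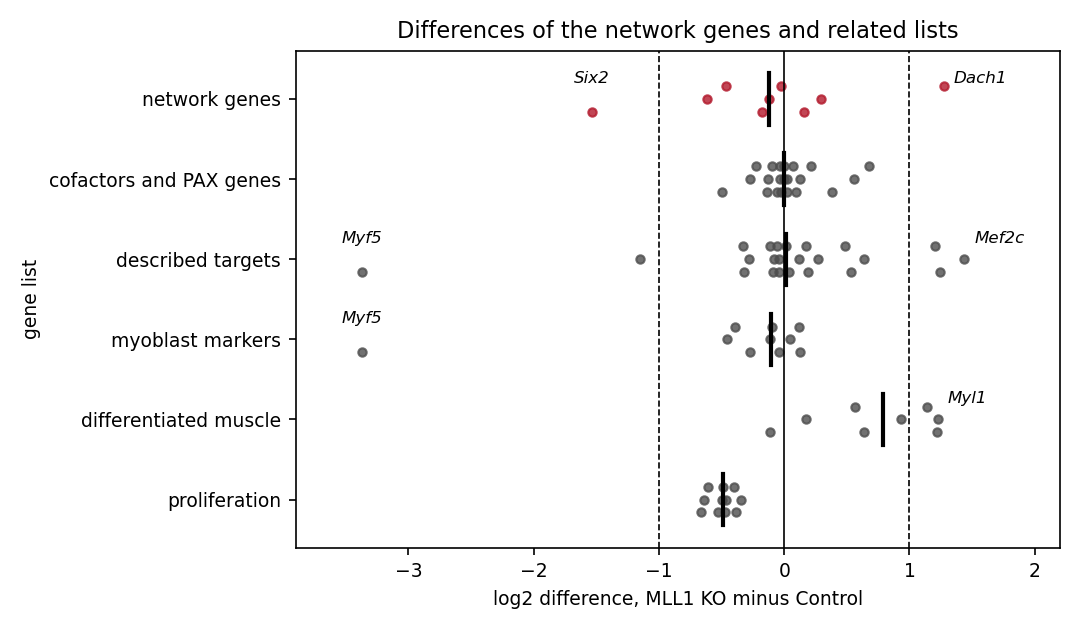
The log2 difference, MLL1 KO minus Control (horizontal axis), of each measured gene in 6 lists (vertical axis), with the median of each list as a black bar and dashed lines at a 2-fold difference. The row of cofactors and PAX genes also holds Meox1, Meox2 and Tbx1. The network genes and the described targets spread to both sides of 0, the 8 genes of differentiated muscle have a median of 0.79, and the 11 proliferation genes all lie below 0.

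Markers of the state of the cells also differed between the arrays in which Six2 and Dach1 differed. Of 12 proliferation genes 11 were measured, and all 11 were lower in MLL1 KO, beside 55.6% of all genes, with log2 differences between -0.66 and -0.35 and a median of -0.49. Their summed linear signal was 11081 in MLL1 KO and 15694 in Control. Of 8 genes of differentiated muscle, 7 were higher, beside 41.6% of all genes, and Ckm was 1.08-fold lower. Over 2-fold higher were 3 of the 8, Myl1, Tnni1 and Mymk, beside 1.16%. The median log2 difference of the 8 was 0.79, and their summed linear signal was 6989 in MLL1 KO and 3559 in Control. Both sums are weighted towards the brightest probe sets. Of 10 myoblast markers, 7 were lower and 3 higher (median -0.11), beside the same 55.6% and 41.6%, and Myf5 was the 1 that passed 2-fold, beside 0.11% over 2-fold lower. The part of these lists in the Six2 and Dach1 differences was not tested. In a bulk culture, fewer cells that express a gene and less RNA per cell cannot be told apart.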

How the data were processed

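RNA of 1 MLL1 KO and 1 Control culture was hybridised to Affymetrix MoGene 1.0 ST arrays. The authors deposited log2 signals after RMA normalization, a method that subtracts background, forces the arrays to 1 distribution and combines the probes of each set. The sources used here do not give the version of RMA. Of 35557 probe sets, 21789 had 1 gene symbol in the annotation table of the platform, 1621 had several and 12147 had none, and only the first were used. Differences are MLL1 KO minus Control on the log2 scale, and the 2-fold limit is that of the methods of the study. Lists and shares over genes average the probe sets of each gene. Named genes are the members, their nearest measured neighbours, list genes over 2-fold or with the largest difference of their list, genes quoted for a level, and the 3 genes nearest to each of the 2 members with the largest differences. Other genes of the lists were chosen after their values were seen. The members and lists were chosen with earlier results of these data known. Alternatives were limits of 1.5-fold and 3-fold, centring, removal of a lowess trend with a span of 0.3, a further quantile normalization, filters on signal, and the brightest probe set per gene. The code was checked on simulated data, which does not measure the error of the differences given here. The calculations ran in Python 3.11.15 with numpy 2.4.6, pandas 2.3.3, statsmodels 0.14.6 and matplotlib 3.10.9. Promoter windows came from RefSeq.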

Additional observations from a re-analysis of the deposited data

How the results depend on the processing

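With 1 array per group, no array could be left out and no difference could be set against a spread between cultures. No paired analysis was possible because each group had 1 array. At a limit of 1.5-fold, 2 members were lower, beside 2.03% of the 21789 probe sets with 1 symbol. At 3-fold no member was lower (0) and none was higher (0). Shares of all genes past 3-fold, or past 1.5-fold higher, were not taken. Nothing is therefore read from the counts given here at those limits, for the members or the lists. Under centring, removal of the trend and a further quantile normalization, Six2 and Dach1 stayed past 2-fold, no other member passed it, and Eya2 turned to 0.03 and 0.06 under the first 2 of these. The median of the members, -0.13, became -0.073 when centred, -0.035 with the trend removed and -0.092 after quantile normalization. It stayed below 0 under the 7 alternatives run. Of these, the brightest probe set per gene could not change it, because each member had 1 probe set. For the cofactors and upstream genes, 1 gene passed a limit of 1.5-fold higher. Their median of 0 became 0.052 when centred, -0.0020 with the trend removed, -0.033 after quantile normalization and -0.018 among genes whose brighter signal was over 7. For the described targets, 1 gene was lower and 0 were higher at 3-fold, and the median became 0.11 with the trend removed and 0.12 among genes whose brighter signal was over 7 or whose mean was over 6. Of the neighbours, only Srbd1 turned sign, to 0.02 when centred. With the trend removed, the dim neighbours Tcf21, Ptafr and Klhl4 shrank to -0.020, -0.016 and -0.022. Six6 became -0.43, and Klhl1 rose to 0.44. The cause of these shifts was not tested.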

Other observations

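A list of 6 genes of nephron progenitors, the kidney cells in which Six2 and Eya1 are also active, was looked at without these 2 members. All 6 were lower in the MLL1 KO array by less than 2-fold, beside 55.6% of all genes, and their median log2 difference was -0.39, against -0.05 over all genes. Other lists of mostly dim genes were lower throughout as well, namely 5 of 5 endothelial genes with a median of -0.22 and 5 of 5 immune genes with a median of -0.23. Of 4 adipocyte genes, 3 were lower and 1 was higher, with a median of -0.26. Of the 2 Schwann cell genes measured, 1 was lower and 1 was higher, with a median of -0.09. With the trend of the difference on signal removed, the endothelial median became -0.040 and the immune median -0.035. The adipocyte median became -0.122 and the Schwann cell median -0.031. The nephron progenitor median became -0.295 under the same setting. Osr1, a zinc finger gene of embryonic mesenchyme, had 7.78 in MLL1 KO and 8.35 in Control, and Cited1, a transcriptional coregulator, had 7.07 in MLL1 KO and 7.34 in Control. Pax2 and Sall1 were dimmer, with Pax2 at 5.18 in MLL1 KO and 5.65 in Control, and Sall1 at 4.91 in MLL1 KO and 5.38 in Control. Wt1 and Pax8 had differences of -0.20 and -0.31. Of 5 tendon genes, 3 were higher, beside 41.6% of all genes, and 2 were lower, beside 55.6%. The largest difference among them was that of Scx, a basic helix-loop-helix factor of tendon. It had 8.91 in MLL1 KO and 8.24 in Control, or 1.59-fold higher. Of 8 fibroblast genes, 5 were lower and 3 higher (median -0.10), beside the same 55.6% and 41.6%. Their signals reached from 2.39 to 9.95 in MLL1 KO and from 2.58 to 9.82 in Control.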
